A study of Mus musculus with 44 samples.

Results

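The regions described here are the open chromatin peaks in and around 8 genes of the Hippo pathway and the TEAD family: Yap1, Wwtr1, Lats1, Lats2, Amotl2, Tead1, Tead2 and Tead3. A peak of the deposited accessibility table was taken when its 200 bp overlapped the mm10 GENCODE gene body or the 10 kb on either side of it. This gave 186 of 152393 peaks: 10 at Lats1, 26 at Lats2, 9 at Amotl2, 26 at Yap1, 32 at Wwtr1, 56 at Tead1, 12 at Tead2 and 15 at Tead3. The rule takes position only, although the 8 genes were picked with earlier results of these data known, and 46 of the 186 peaks also lie inside another annotated gene, among them 18 Lats2 peaks inside Gm49361 and 9 of the 15 Tead3 peaks.

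The study profiled chromatin by ATAC-seq, in which the Tn5 transposase cuts open DNA, in mouse embryos lacking Oct4 (gene Pou5f1) or Sox2. Males heterozygous for a Pou5f1 mKO2 or a Sox2 EGFP reporter allele were mated with flox/flox females carrying Zp3-Cre, which acts in the growing oocyte. Fluorescent embryos were maternal-zygotic knockouts (KO). Unlabelled littermates were the controls (Ctrl), so that every control had also lost the maternal copy and kept 1 intact paternal copy. Each of the 44 libraries was a pool of 20 to 40 morulae or isolated inner cell masses (ICMs), with the background given as B6C3F1. The Pou5f1 line was sampled as morulae at E2.75 and late morulae at E3.25 (3 libraries per genotype), and as early ICMs at E3.75 and late ICMs at E4.5 (4 libraries per genotype). The Sox2 line was sampled as early and late ICMs (4 libraries per genotype). Embryos for ICMs were cultured from E2.5 with 1 µM PD0325901, an inhibitor of the kinase MEK, and their outer cells were removed by immunosurgery, whereas morulae were used whole and directly. A change from late morula to early ICM therefore also crosses culture, MEK inhibition and the loss of the outer cells, and these cannot be told apart. In such pools, fewer cells of a type and a lower signal per cell cannot be told apart either. The labels do not say whether replicate pools came from separate matings, so p-values measure the spread between pools.

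In the Hippo pathway, upstream kinases activate LATS1 and LATS2, which phosphorylate the coactivators YAP (Yap1) and TAZ (Wwtr1) and keep them out of the nucleus. AMOTL2, an angiomotin, is a junction scaffold that binds YAP and helps LATS act on it. When the pathway is off, YAP and TAZ enter the nucleus and bind the TEAD proteins, the DNA-binding partners through which they switch on transcription. In the preimplantation embryo the pathway is active in inner cells and inactive in outer cells, where YAP and TEAD turn on trophectoderm genes such as Cdx2 and Gata3.

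Values were rlog values, regularised log2 counts of Tn5 insertions per peak, and all peaks had the same length. No correction for base composition was made here, and the median share of G and C bases was 47.5% at Wwtr1 and 58.5% at Amotl2. Levels set side by side between genes are therefore a description. A difference is on this log2 scale, and rlog shrinks differences at peaks with few reads. Over the 186 peaks the mean rlog had a median of 3.03, against 2.43 over all peaks, and the highest was 6.94 at Tead1. Read depth is unknown because the table holds no counts. Replicate libraries of a group correlated across all peaks with r between 0.762 and 0.908. Mean rlog over the 3 peaks in the Pou5f1 gene body was 3.46 to 4.08 in control and 3.76 to 4.06 in KO late ICMs, and at the 1 Sox2 peak it was 2.42 to 3.50 and 1.14 to 2.91 in the Sox2 line. Whether these peaks lie inside the deleted parts was not worked out, so they do not check the labels. Over the loci of 7 epiblast markers, mean rlog was 2.69 to 2.97 in control late morulae and 3.63 to 3.89 in control early ICMs of the Pou5f1 line. Over 5 primitive endoderm markers it was 2.23 to 2.58 and 2.62 to 2.97, also without overlap, and over 7 trophectoderm markers 3.54 to 3.63 and 3.33 to 3.55, which overlapped. The part of these markers' shifts in the differences between stages was not tested.

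The sequences below are shown because the results turn on these peaks: the Lats2 intron peak with the largest fall in Pou5f1-KO late ICMs, the Tead1 intron peak that fell and the Wwtr1 upstream peak that rose in late ICMs of both knockouts, and the peaks of Yap1 and of Wwtr1 at which loss of Oct4 had its best supported difference in late ICMs. Peaks are named by gene and by the distance of the peak's centre from the 5' end of the gene, with a minus sign for upstream. Each is printed 5' to 3' on the plus strand of GRCm38 (RefSeq). Capitals mark exact matches, on either strand, to GGAATG, the core word bound by TEAD, or to ATGCAAAT, the octamer word. They were chosen for printing after their values were seen.
Lats2 25.5 kb, intron, chr14:57732743-57732942: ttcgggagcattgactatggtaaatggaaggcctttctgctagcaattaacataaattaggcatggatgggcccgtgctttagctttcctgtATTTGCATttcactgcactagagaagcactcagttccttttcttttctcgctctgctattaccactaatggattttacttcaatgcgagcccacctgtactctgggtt
Yap1 31.3 kb, intron, chr9:7973240-7973439: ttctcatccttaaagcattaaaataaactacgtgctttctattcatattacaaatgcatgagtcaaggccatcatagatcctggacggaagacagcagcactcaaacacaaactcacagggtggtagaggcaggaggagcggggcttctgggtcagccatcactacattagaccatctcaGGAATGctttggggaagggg
Wwtr1 -3.0 kb, upstream, chr3:57578769-57578968: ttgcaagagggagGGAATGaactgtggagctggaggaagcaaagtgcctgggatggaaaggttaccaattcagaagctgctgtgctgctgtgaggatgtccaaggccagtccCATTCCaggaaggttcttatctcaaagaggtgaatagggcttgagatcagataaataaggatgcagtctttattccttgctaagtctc
Wwtr1 -6.7 kb, upstream, chr3:57582539-57582738: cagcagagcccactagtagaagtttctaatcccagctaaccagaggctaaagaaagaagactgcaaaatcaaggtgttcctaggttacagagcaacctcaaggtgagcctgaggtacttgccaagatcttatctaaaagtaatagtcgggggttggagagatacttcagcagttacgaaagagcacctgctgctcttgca
Tead1 9.2 kb, intron, chr7:112688417-112688616: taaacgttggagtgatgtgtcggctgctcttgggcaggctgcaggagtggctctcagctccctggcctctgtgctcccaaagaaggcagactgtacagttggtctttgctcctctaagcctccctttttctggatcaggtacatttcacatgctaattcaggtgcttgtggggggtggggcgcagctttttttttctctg

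The Lats2 sequence holds the octamer word and no TEAD word, the Yap1 sequence holds 1 TEAD word, and the Wwtr1 -3.0 kb sequence holds 2. Among the 186 peaks, 40 (21.5%) held the TEAD word, against 18.9% of all peaks. The octamer word was in 5 of the 186 peaks, 1 each at Yap1, Wwtr1, Lats2, Tead1 and Tead2 (2.69% against 2.39%). None held TTGTNATGC, the joint OCT-SOX word, which was in 0.817% of all peaks. A match is a description of letters and does not show that a factor is bound.

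The largest shift at these loci came between late morula and early ICM. In controls of the Pou5f1 line, 46 of the 186 peaks rose and 16 fell from late morula to early ICM (24.7% and 8.6%), where 14.7% of all peaks rose and 15.0% fell (29.7% together). Tead1 supplied 26 of the 46 and Yap1 8. From morula to late morula, 10 peaks rose and 1 fell (3.65% and 2.79% of all peaks, 6.44% together), and the 10 became 5 without morula replicate 1 or late morula replicate 1 and 6 without late morula replicate 2. From early to late ICM, 1 peak fell and none rose by limma's test (0.18% and 0.0787% of all peaks, 0.259% together). At an unadjusted p under 0.05, 10 fell and 5 rose there.

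Most calls at these loci after loss of Oct4 were in ICMs. In Pou5f1-KO morulae no peak of the 186 passed limma's test in either direction, where 0.185% of all peaks were called lower and 0.0518% higher (0.237% together), and 11 were lower and 8 higher at an unadjusted p under 0.05. The same held in late morulae (0.539% and 0.108% of all peaks, 0.648% together), with 8 lower and 9 higher at an unadjusted p under 0.05. With the replicate number as a block, 1 peak fell in KO late morulae, the Lats2 25.5 kb peak described next, and with only the libraries compared 2 fell and 1 rose. In Pou5f1-KO early ICMs 10 peaks fell and 4 rose, 7.53% together (5.43% and 2.753% of all peaks, 8.18% together). In Pou5f1-KO late ICMs 15 fell and 21 rose, 19.4% together (10.1% and 8.19% of all peaks, 18.3% together), and 5 of the lower and 2 of the higher peaks were called the same way in early ICMs (2.69% and 1.08% of the 186, against 4.03% and 1.55% of all peaks). The higher count in early ICMs was between 1 and 7 when control replicate 1, 2 or 3 or KO replicate 1 or 4 was left out. In late ICMs the lower count was 7, 9 and 8 without control replicate 3, control replicate 4 and KO replicate 1, and the higher count was 13 and 12 without control replicate 3 and KO replicate 3.

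Calls were fewer in the Sox2-KO, as they were over all peaks. In Sox2-KO early ICMs 2 peaks fell, both at Wwtr1, and 1 rose, at Lats2 (1.91% and 0.238% of all peaks, 2.15% together), and leaving out single libraries gave 0 to 2 lower and 0 higher. In Sox2-KO late ICMs 4 fell and 12 rose (4.88% and 2.71% of all peaks, 7.59% together), and 8 of the 12 were at Tead1. The higher calls in late ICMs were 6.45% of the 186 peaks and the lower calls 2.15%. The count of 12 was between 4 and 8 when any 1 of the 8 libraries was left out. The count of 4 was 1 without control replicate 1 and 2 without KO replicate 4, and it was 8 with only the libraries compared. In all, 55 of the 186 peaks were called in at least 1 of the 6 comparisons of KO with Ctrl (29.6%, against 24.5% of all peaks).

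**Figure D1:**
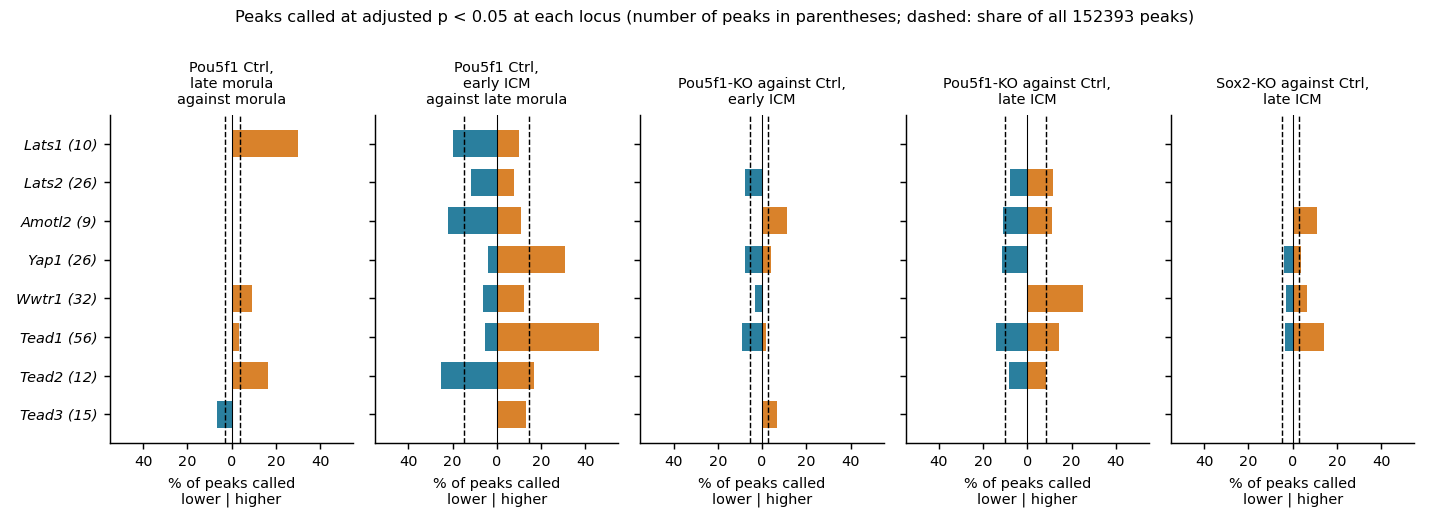
Percent of the peaks of each locus called lower (blue, to the left) or higher (orange, to the right) at adjusted p under 0.05 in 5 comparisons, with the number of peaks of each locus in parentheses. Dashed lines give the shares of all 152393 peaks. Tead1 reaches 46.4% higher between late morula and early ICM, and Wwtr1 25.0% higher with none lower in Pou5f1-KO late ICMs.

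LATS1 and LATS2 are the kinases that hold YAP and TAZ back. None of the 10 peaks of Lats1 (ENSMUSG00000040021.13, chr10:7681214-7716460, plus strand of GRCm38) was called in any comparison of KO with Ctrl, where 24.5% of all peaks were called in at least 1. No test compared Lats1 with other loci. In controls, the peak 0.5 kb into Lats1, the nearest to an annotated start, had rlog values of 2.10, 3.66 and 3.63 in morulae and 4.32, 5.15 and 4.95 in late morulae. The late morula libraries were all higher, and the difference was 1.67 (SE 0.37, limma adjusted p = 0.00199). Without morula replicate 1 this call was lost (limma adjusted p = 0.077). The peak 8.4 kb upstream of Lats1, which lies in the genes Nup43 and Pcmt1, rose by 1.42 at the same step (SE 0.47, limma adjusted p = 0.0477), a call lost without morula replicate 1 or 2 or any late morula replicate (limma adjusted p between 0.0887 and 0.371). It then fell by 1.56 from late morula to early ICM (SE 0.44, limma adjusted p = 0.00412). Its late morula values of 4.35, 4.77 and 4.65 stood above all morula and early ICM control values.

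Lats2 (ENSMUSG00000021959.16, chr14:57689662-57758388, minus strand) held the largest KO difference of the 186 peaks, in an intron 25.5 kb into the gene. In late ICMs of the Pou5f1 line this peak had rlog values of 4.19, 4.16, 3.63 and 3.91 in controls and 1.31, 0.90, 0.65 and 0.97 in KO libraries. The groups did not overlap, and accessibility fell by 3.02 in the KO (SE 0.41, limma adjusted p = 9.48e-09), an 8.1-fold drop. In early ICMs the values were 4.09, 4.55, 4.07 and 2.84 in controls and 1.76, 1.48, 0.87 and 1.22 in KO libraries. Again no library overlapped, and the peak fell by 2.56 (SE 0.41, limma adjusted p = 2.08e-06).

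In late morulae of the Pou5f1 line the same Lats2 peak passed the test, of all fits run, with the replicate block only. Controls had 2.98, 2.76 and 2.62 and KO libraries 0.98, 0.54 and 1.66. The groups did not overlap, the difference was -1.73 (SE 0.48, limma adjusted p = 0.0616), and with the replicate number as a block the adjusted p was 0.0248. In morulae the values were 2.61 ± 1.15 (SD, n = 3) in controls and 2.59, 1.95 and 0.77 in KO libraries, and the groups overlapped. In the Sox2 line, late ICM values were 5.36, 5.48, 4.56 and 5.10 in controls and 3.69, 4.31, 4.69 and 4.23 in KO libraries. These ranges overlapped by 1 library, with a difference of -0.89 (SE 0.41, limma adjusted p = 0.207). A direct comparison of the knockout effects crosses the mouse lines. Each line has its own controls, so line and deleted gene cannot be told apart in it. The Pou5f1 effect minus the Sox2 effect was -2.34 in early ICMs (SE 0.59, limma adjusted p = 0.028) and -2.13 in late ICMs (SE 0.59, limma adjusted p = 0.0491). The first was lost without Pou5f1 control replicate 1, 2 or 3, Pou5f1-KO replicate 3 or 4, Sox2 control replicate 3 or Sox2-KO replicate 1 or 2 (limma adjusted p between 0.051 and 0.0995), and with only the libraries compared. The second was lost under quantile normalization and without any 1 of the 16 libraries other than Sox2-KO replicate 1 (limma adjusted p between 0.0503 and 0.108).

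Other Lats2 intron peaks, 20.8 kb, 21.1 kb and 48.9 kb into the gene, rose in Pou5f1-KO late ICMs, by 1.45 (SE 0.40), 1.41 (SE 0.28) and 1.35 (SE 0.37), with limma adjusted p of 0.00546, 6.01e-05 and 0.00436. The call at 48.9 kb was lost without control replicate 2 (limma adjusted p = 0.0635). Besides the 25.5 kb peak, a peak 70.0 kb from the start, downstream of the gene, fell there, by 1.14 (SE 0.41, limma adjusted p = 0.0405). That call was lost without control replicate 2, 3 or 4 or KO replicate 1, 2 or 3 (limma adjusted p between 0.0586 and 0.147), and also with only the libraries compared and under quantile normalization. A downstream peak 69.1 kb from the start fell by 1.50 in Pou5f1-KO early ICMs (SE 0.39, limma adjusted p = 0.0052), a call lost without KO replicate 2 (limma adjusted p = 0.0679). It had risen by 1.97 from late morula to early ICM in controls (SE 0.42, limma adjusted p = 0.000145). The peak was picked by this rise, and both comparisons use the same early ICM controls, which favours a fall. Neither of the Lats2 peaks over an annotated start passed the test in any comparison.

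Amotl2 (ENSMUSG00000032531.15, chr9:102716672-102733418, plus strand) had the highest mean rlog of the 8 loci in every group, between 4.09 and 4.77 over its 9 peaks. Its peak 1.8 kb into the gene overlaps an annotated start and UTR sequence, and it rose at the ICM step in controls. Late morulae had 2.69, 3.84 and 4.32 and early ICMs 5.05, 5.53, 5.35 and 5.22. All early ICM libraries were above all late morulae, a rise of 1.67 (SE 0.35, limma adjusted p = 0.000123). In late ICMs of the Pou5f1 line, controls had 5.44, 5.26, 5.57 and 5.63 and KO libraries 4.77, 4.22, 4.32 and 4.33, with no overlap. The peak fell by 1.06 in the KO (SE 0.32, limma adjusted p = 0.0121). In the Sox2-KO late ICM the peak 1.0 kb upstream rose by 1.11 (SE 0.33, limma adjusted p = 0.0192), with values of 3.90, 3.78, 4.07 and 4.76 in controls and 4.90, 5.54, 4.94 and 5.59 in KO libraries. That call was lost without control replicate 1 or 2 or KO replicate 2 or 4 (limma adjusted p between 0.0653 and 0.0793). A downstream peak 17.5 kb from the start rose in the Pou5f1-KO, by 1.49 in early ICMs (SE 0.43, limma adjusted p = 0.0164) and by 1.31 in late ICMs (SE 0.43, limma adjusted p = 0.0234). The early call was lost without control replicate 1 or 2 or KO replicate 4 (limma adjusted p between 0.0734 and 0.0926), and the late call without control replicate 1 or KO replicate 1 or 3 (limma adjusted p between 0.0648 and 0.0787). Of the Amotl2 peaks over an annotated start, the one with the highest mean rlog, 1.0 kb into the gene, was not called in any comparison.

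Yap1 (ENSMUSG00000053110.13, chr9:7931999-8004596, minus strand) and Wwtr1 (ENSMUSG00000027803.14, chr3:57455649-57575910, minus strand) encode the coactivators YAP and TAZ. In Pou5f1-KO late ICMs 3 of 26 Yap1 peaks fell and none rose. Their share, 11.5%, was near the 10.1% of all peaks called lower. At Wwtr1 8 of 32 peaks rose, 25.0% against 8.19% of all peaks, and none fell. The 8 higher Wwtr1 peaks had differences of 1.07 to 1.79 and lay between 6.7 kb upstream and 35.2 kb into the gene. Leaving out control replicate 3 or KO replicate 3 gave a count of 4 in place of 8. With only the peaks whose mean rlog reached the median tested, the counts were 1 at Yap1 and 4 at Wwtr1. No test compared the genes with each other.

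The Yap1 peak with the largest difference lies in an intron 31.3 kb into the gene. In late ICMs of the Pou5f1 line it had 4.08, 4.54, 4.60 and 4.85 in controls and 1.97, 3.15, 1.22 and 1.19 in KO libraries. No KO library reached the lowest control, and the peak fell by 2.63 (SE 0.48, limma adjusted p = 1.1e-05), 6.21-fold. In early ICMs it fell by 1.46 (SE 0.48, limma adjusted p = 0.0378), a call lost under quantile normalization and without replicate 1, 2 or 4 of either group (limma adjusted p between 0.0511 and 0.128). The same peak had risen by 2.52 from late morula (1.32, 1.12 and 1.10) to early ICM (3.98, 4.14, 2.97 and 3.71) in controls (SE 0.52, limma adjusted p = 8.65e-05). The comparison of stages and that of genotypes share the early ICM controls. In the Sox2 line its late ICM values spread from 0.62 to 4.45 in controls and from 1.87 to 2.99 in KO libraries, so the ranges overlapped, and the difference between the knockout effects was -2.16 (SE 0.67, limma adjusted p = 0.0977).

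A Yap1 intron peak 8.5 kb into the gene was also called at the ICM step and in late ICMs. It rose by 2.07 into the early ICM (SE 0.37, limma adjusted p = 7.17e-06) and had values of 5.79, 5.82, 5.81 and 5.72 in control late ICMs. KO late ICMs had 3.82, 4.99, 4.63 and 4.55, all below the controls, and the peak fell by 1.29 (SE 0.34, limma adjusted p = 0.00322). In early ICMs the KO and control libraries overlapped, with a difference of -0.71 that did not pass (SE 0.34, limma adjusted p = 0.21). The Yap1 peak 4.8 kb into the gene, over an annotated exon, fell in the Sox2-KO late ICM by 1.51 (SE 0.42, limma adjusted p = 0.0101). Its control values were 4.04 ± 0.37 (SD, n = 4), the lowest at 3.61, and its KO values 2.39, 3.06, 3.40 and 1.26, again without overlap. The call was lost without control replicate 1 or KO replicate 4 (limma adjusted p between 0.0534 and 0.133). In Pou5f1-KO early ICMs the same peak had 2.20, 3.41, 2.80 and 2.45, below controls of 3.92 ± 0.27 (SD, n = 4), the lowest at 3.64, and the difference of -1.20 was called with the replicate block (limma adjusted p = 0.0242) and not without it (SE 0.42, limma adjusted p = 0.0544). The knockout effects there did not differ past the threshold (limma adjusted p = 0.907 in early and 0.548 in late ICMs). The 8 Yap1 peaks that rose into the early ICM became 5 without late morula replicate 2. The Yap1 peak at the gene start was not called in any comparison, with group means of 3.53 to 4.94.

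At Wwtr1 the upstream region carried differences of both signs. The peak 3.0 kb upstream, with 2 TEAD words, had late ICM values of 3.34, 3.04, 2.39 and 1.99 in controls and 4.70, 4.17, 4.29 and 3.86 in Pou5f1-KO libraries. All KO libraries were above all controls, and the peak rose by 1.56 (SE 0.37, limma adjusted p = 0.000768). In the Sox2 line the late ICM difference was 0.20 (SE 0.37, limma adjusted p = 0.848), and the difference between the knockout effects, 1.36, did not pass (SE 0.52, limma adjusted p = 0.211). The peak 6.7 kb upstream was higher in both knockouts. In the Pou5f1 line it had 2.78, 2.86, 2.72 and 2.97 in controls and 3.91 ± 0.13 (SD, n = 4) in KO libraries, and in the Sox2 line 2.65, 2.86, 2.69 and 2.42 in controls and 3.45, 3.53, 4.06 and 4.78 in KO libraries. Neither pair of groups overlapped. The rises were 1.07 (SE 0.40, limma adjusted p = 0.0448) and 1.30 (SE 0.40, limma adjusted p = 0.0246), and the first was lost when any 1 of the 8 libraries of its comparison was left out (limma adjusted p between 0.0629 and 0.0931). The second was lost without control replicate 1 or 4 or KO replicate 3 or 4 (limma adjusted p between 0.0527 and 0.154).

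The Wwtr1 peak 7.8 kb upstream, singled out after its values were seen, behaved otherwise. It was among the more open peaks, at 5.84 to 6.17 in early ICM controls of the Pou5f1 line. KO early ICMs had 3.44, 4.70, 4.85 and 3.96, all below the controls, and the peak fell by 1.76 (SE 0.26, limma adjusted p = 1.96e-07). Late ICM controls, at 5.37, 4.51, 5.04 and 4.88, were themselves below the early ICM controls by 1.05 (SE 0.26, limma adjusted p = 0.0461), a call lost without any 1 of the 8 libraries other than late ICM replicate 1 (limma adjusted p between 0.0721 and 0.225). In late ICMs KO and control libraries overlapped, with a difference of -0.19 (SE 0.26, limma adjusted p = 0.673). In Sox2 early ICMs the difference was 0.06 (SE 0.26, limma adjusted p = 0.966), and the difference between the knockout effects was -1.83 (SE 0.37, limma adjusted p = 0.00309). That call held in all 20 alternative fits.

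Other Wwtr1 peaks passed the test in Sox2-KO ICMs. The intron peak 72.2 kb into the gene opened into the early ICM in controls, from 2.36, 2.23 and 1.84 to 3.76, 4.74, 4.72 and 5.64, a rise of 2.57 without overlap (SE 0.44, limma adjusted p = 3.48e-06). In Sox2 early ICMs it had 4.92, 4.92, 5.23 and 4.44 in controls and 4.03, 3.03, 3.23 and 3.41 in KO libraries, and it fell by 1.45 (SE 0.41, limma adjusted p = 0.031). That call was lost without control replicate 1, 2 or 3 or KO replicate 2, 3 or 4 (limma adjusted p between 0.0545 and 0.113). In Pou5f1-KO early ICMs the difference there was -0.30 (SE 0.41, limma adjusted p = 0.752), and the direct comparison of the knockouts did not pass (limma adjusted p = 0.409). The intron peak 16.9 kb into the gene fell by 1.34 in Sox2-KO late ICMs (SE 0.35, limma adjusted p = 0.0066), although the highest KO library, at 3.77, exceeded the lowest control, at 3.67. The call was lost without control replicate 1 or KO replicate 2 (limma adjusted p between 0.0598 and 0.0681). The start peak of Wwtr1 was the most open of the gene, with a mean rlog of 5.95 over all libraries, and was not called in any comparison.

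**Figure D2:**
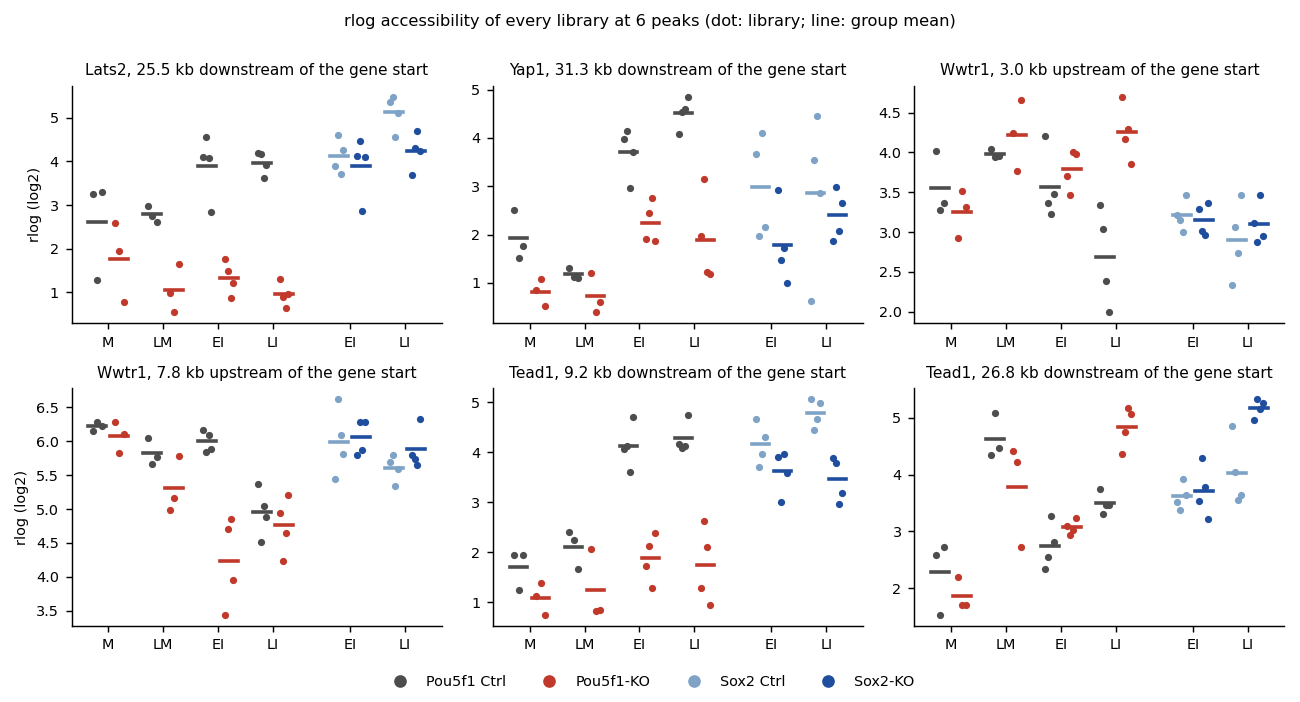
rlog accessibility (log2) of each library at 6 peaks of Lats2, Yap1, Wwtr1 and Tead1, by stage (M, morula; LM, late morula; EI, early ICM; LI, late ICM), with the Pou5f1 line on the left and the Sox2 line on the right of each panel. Dots are libraries and lines group means. The Lats2 peak lies between 0.65 and 1.31 in all Pou5f1-KO late ICMs and between 3.63 and 4.19 in their controls, while the Wwtr1 peak 7.8 kb upstream has a KO group apart from its controls in early ICMs and overlapping them in late ICMs.

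TEAD1 is a TEAD protein with wide tissue expression, and its gene (ENSMUSG00000055320.17, chr7:112679318-112906807, plus strand) holds 56 of the 186 peaks, 49 of them annotated as intron. Mean rlog over these 56 peaks was 2.51 to 2.80 in control morulae and 2.62 to 2.98 in control late morulae. It was 3.47 to 3.69 in control early ICMs and 3.49 to 4.06 in control late ICMs of the Pou5f1 line, so that ICM libraries stood above all morulae. Across the 12 groups the locus mean spanned 1.45, and that of the other loci at most 0.74. From late morula to early ICM 26 of the 56 peaks rose, by 0.64 to 2.69 (46.4%, against 14.7% of all peaks). There 3 fell, by 1.33 to 1.89 (5.36%, against 15.0% of all peaks). The median difference over the 56 peaks was 0.89, against -0.04 over all peaks. Leaving out 1 library gave counts of 19 to 26 rises.

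The smallest adjusted p at this step was at the intron peak 144.5 kb into Tead1. It had 1.24, 1.89 and 0.97 in control late morulae and 4.40, 3.44, 3.77 and 4.62 in control early ICMs. The groups stood far apart, a rise of 2.69 (SE 0.45, limma adjusted p = 1.69e-06), or 6.46-fold. In Pou5f1-KO early ICMs the values were 1.36, 3.84, 0.96 and 2.73, of which 1 reached into the control range, and the peak fell by 1.83 (SE 0.41, limma adjusted p = 0.000953). This fall was measured against the same early ICM controls whose rise picked the peak, which favours a fall. In late ICMs controls had 4.81 ± 0.28 (SD, n = 4), the KO libraries 3.46, 3.36, 4.24 and 2.78, and it fell by 1.35 (SE 0.41, limma adjusted p = 0.0127), which was lost without KO replicate 4 (limma adjusted p = 0.0736). In Sox2-KO late ICMs the difference was -0.30 (SE 0.41, limma adjusted p = 0.783). The direct comparison of the knockouts did not pass at either stage (limma adjusted p = 0.236 and 0.468).

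In Pou5f1-KO late ICMs 8 Tead1 peaks fell and 8 rose (14.3% each, against 10.1% and 8.19% of all peaks), and their positions were not intermixed at the 5' end. Between 1.7 kb and 12.1 kb into the gene, 4 peaks fell, by 0.85 to 2.54, and from 26.8 kb to 102.5 kb 6 rose, by 0.52 to 1.34. Further on, 4 fell and 2 rose. These counts were sensitive to single libraries: the lower calls were 3 without control replicate 3 or 4, 4 without KO replicate 1 and 5 without KO replicate 4. The higher calls were 5 without control replicate 1, 2 or 3 and 4 without KO replicate 2 or 3. In Sox2-KO late ICMs 8 Tead1 peaks rose and 2 fell, and leaving out any 1 of the 8 libraries gave counts of 3 to 5 rises, where only the libraries compared gave 13. The share of Tead1 peaks called higher there was 14.3%, against 2.71% of all peaks, and the share called lower 3.57%, against 4.88%.

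**Figure D3:**
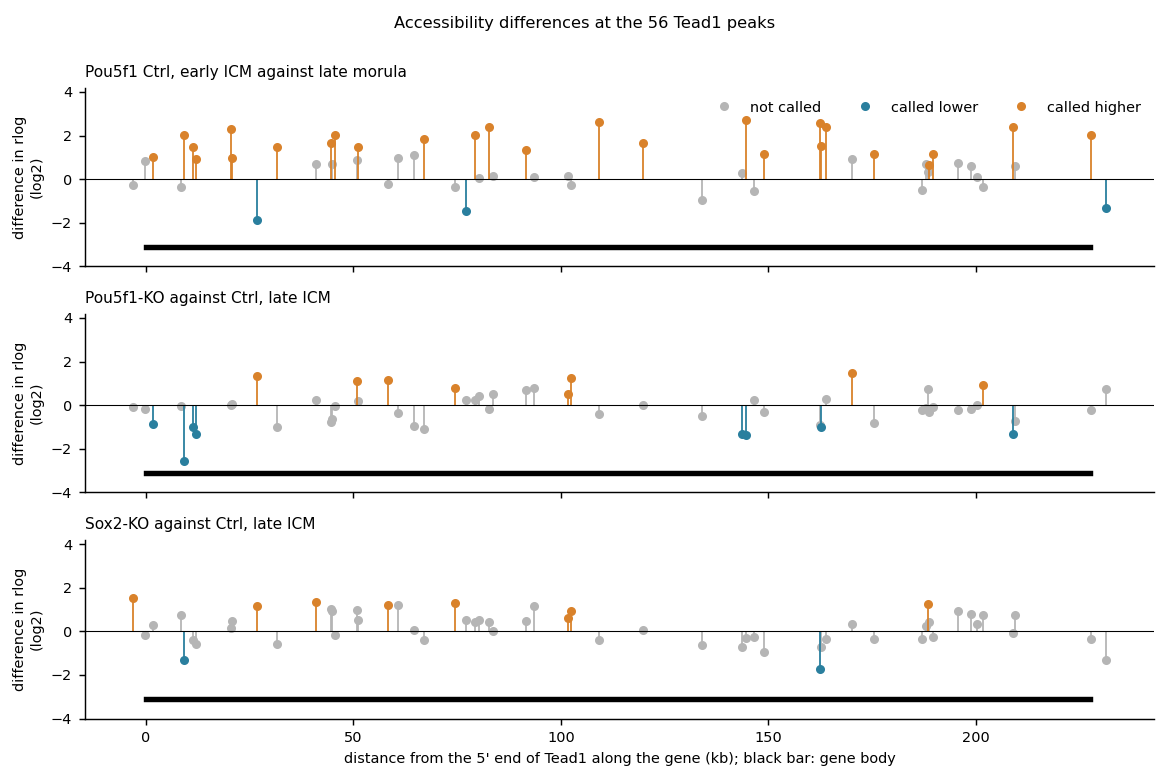
Difference in rlog (log2) at each of the 56 Tead1 peaks against the distance of the peak's centre from the 5' end of the gene (kb), for control early ICM against late morula and for KO against Ctrl late ICMs of both lines. Orange and blue mark peaks called higher and lower, grey those not called, and the black bar the gene body. Rises between stages are spread along the gene body, while in Pou5f1-KO late ICMs the peaks called lower at the 5' end are followed by peaks called higher from 26.8 kb to 102.5 kb.

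The intron peak 9.2 kb into Tead1 was the 1 peak of the 186 that fell in late ICMs of both knockouts. In the Pou5f1 line it had 4.16, 4.08, 4.12 and 4.74 in controls and 1.28, 2.62, 2.11 and 0.94 in KO libraries, a fall of 2.54 without overlap (SE 0.40, limma adjusted p = 4.29e-07). In the Sox2 line it had 5.06, 4.45, 4.67 and 4.98 in controls and 3.88, 3.79, 2.97 and 3.19 in KO libraries, a fall of 1.33 without overlap (SE 0.40, limma adjusted p = 0.0223). The second call was lost without control replicate 1 or 4 or KO replicate 3 or 4 (limma adjusted p between 0.0638 and 0.0998). In early ICMs it fell by 2.24 in the Pou5f1-KO (SE 0.40, limma adjusted p = 1.76e-05), where controls had 4.06, 4.13, 3.61 and 4.71 and KO libraries 1.73, 2.13, 1.29 and 2.39. The Sox2-KO early ICM difference was -0.55 (SE 0.40, limma adjusted p = 0.66). The knockout effects did not differ past the threshold (limma adjusted p = 0.139 in early and 0.346 in late ICMs). Control morulae at E2.75 had held only 1.25 to 1.95 at this peak. From late morula to early ICM it rose by 2.02 in controls (SE 0.43, limma adjusted p = 0.000168). That rise and the fall in Pou5f1-KO early ICMs share the early ICM controls.

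The peaks that rose in late ICMs of both knockouts were 5 at Tead1 and the Wwtr1 peak 6.7 kb upstream. The Tead1 peak 26.8 kb into the gene also moved between the stages of the controls. It had 2.59, 1.53 and 2.73 in control morulae, 4.34, 5.09 and 4.47 in late morulae and 2.34, 2.55, 3.27 and 2.81 in early ICMs. It thus rose by 2.35 (SE 0.42, limma adjusted p = 0.00011) and then fell by 1.89 (SE 0.40, limma adjusted p = 0.000121), each time without overlap. In late ICMs controls had a mean of 3.5 ± 0.19 (SD, n = 4) and Pou5f1-KO libraries 4.37, 4.76, 5.17 and 5.06, a rise of 1.34 without overlap (SE 0.37, limma adjusted p = 0.00458). In the Sox2 line controls had 4.85, 4.05, 3.56 and 3.64 and KO libraries 4.96, 5.33, 5.16 and 5.27, a rise of 1.15 without overlap (SE 0.37, limma adjusted p = 0.0328). The Sox2-KO call was lost under quantile normalization and without replicate 2, 3 or 4 of either group (limma adjusted p between 0.0625 and 0.122).

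The most open of the 186 peaks lies 101.7 kb into Tead1, in an intron, with a mean rlog of 6.94. Its late ICM values were 7.09, 6.42, 6.47 and 6.79 in controls against 7.27, 7.39, 7.10 and 7.11 in Pou5f1-KO libraries, and 7.05, 7.30, 6.89 and 7.01 against 7.64, 7.62, 7.69 and 7.81 in the Sox2 line. Neither pair overlapped, although in the Pou5f1 line the lowest KO library stood just above the highest control, and the rises were 0.52 (SE 0.18, limma adjusted p = 0.0243) and 0.63 (SE 0.18, limma adjusted p = 0.0118). The first call was lost without control replicate 2 or 3 or KO replicate 1 or 2 (limma adjusted p between 0.0541 and 0.106), and the second without Sox2 control replicate 3 (limma adjusted p = 0.0504). The next peak, 102.5 kb into the gene, rose by 1.24 (SE 0.30, limma adjusted p = 0.00105) and 0.91 (SE 0.30, limma adjusted p = 0.0392), without overlap. Its Sox2-KO call was lost under quantile normalization and when any 1 of the 8 libraries was left out (limma adjusted p between 0.0565 and 0.114). Both peaks and the one at 26.8 kb hold the TEAD word. The Tead1 peaks at 58.5 kb and 74.6 kb and the Wwtr1 peak 6.7 kb upstream, which also rose in both knockouts, do not. Over all peaks, the word was in 30.2% of those higher in Pou5f1-KO and 33.9% of those higher in Sox2-KO late ICMs. The peak 74.6 kb into the gene had the smallest adjusted p of the Tead1 rises in Sox2-KO late ICMs, with 5.73, 5.53, 4.97 and 5.19 in controls and 6.49, 6.59, 6.95 and 6.65 in KO libraries. Without overlap it rose by 1.32 (SE 0.27, limma adjusted p = 0.000236), and in the Pou5f1-KO, with overlap, by 0.79 (SE 0.27, limma adjusted p = 0.0283). This second call was lost without control replicate 1 or 2 or KO replicate 2, 3 or 4 (limma adjusted p between 0.0593 and 0.137). The fifth, at 58.5 kb, rose by 1.17 (SE 0.39, limma adjusted p = 0.026) and 1.21 (SE 0.39, limma adjusted p = 0.0392). The first call was lost without control replicate 1 or KO replicate 3 (limma adjusted p between 0.099 and 0.113), and the second without control replicate 1, 2 or 3 or KO replicate 1, 2 or 4 (limma adjusted p between 0.0657 and 0.195).

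TEAD2 is the TEAD protein known for early expression in the mouse embryo. At its gene (ENSMUSG00000030796.17, chr7:45215753-45233644, plus strand), the accessibility 1.2 kb upstream was highest in the late morula among control stages. Controls had 2.29, 2.89 and 1.90 in morulae, 4.40, 3.92 and 4.14 in late morulae and 1.81, 1.62, 2.35 and 2.08 in early ICMs. The late morula libraries stood above all the others, with a rise of 1.79 (SE 0.48, limma adjusted p = 0.0117) and a fall of 2.19 (SE 0.45, limma adjusted p = 9.18e-05). The rise was lost without morula replicate 3 or late morula replicate 1 (limma adjusted p between 0.0674 and 0.0694). In late ICMs the peak had 1.88, 2.45, 1.24 and 2.86 in controls and 3.45, 3.67, 3.32 and 3.09 in Pou5f1-KO libraries, a rise of 1.28 without overlap (SE 0.42, limma adjusted p = 0.0205), lost without control replicate 1 or 3 or KO replicate 2 (limma adjusted p between 0.0521 and 0.13). In the Sox2 line the late ICM groups did not overlap either, but the difference of 0.90 did not pass (SE 0.42, limma adjusted p = 0.204). A peak 23.1 kb from the start, inside the neighbouring gene Cd37, rose by 1.89 into the early ICM (SE 0.49, limma adjusted p = 0.00196) and fell by 1.43 in Pou5f1-KO late ICMs (SE 0.46, limma adjusted p = 0.0169), where groups overlapped. This fall was lost without control replicate 2 or 3 or KO replicate 1 (limma adjusted p between 0.0598 and 0.12).

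Tead3 (ENSMUSG00000002249.21, chr17:28331671-28350817, minus strand), which encodes a further TEAD protein, had 1 of its 15 peaks called in a comparison of KO with Ctrl (6.67%, against 24.5% of all peaks). None was called in late ICMs, where 18.3% of all peaks were called in the Pou5f1-KO and 7.59% in the Sox2-KO. The 1 call was a rise of 1.26 at a peak 6.9 kb upstream, inside the neighbouring gene Tulp1, in Pou5f1-KO early ICMs (SE 0.43, limma adjusted p = 0.0472). That call was lost without control replicate 2, 3 or 4 or KO replicate 1, 2 or 3 (limma adjusted p between 0.0704 and 0.149), and also with only the libraries compared. The same peak was the 1 of the 186 that fell from morula to late morula in controls, by 2.34 (SE 0.49, limma adjusted p = 0.00101). Its calls into the early ICM, at 24.2 kb and 25.6 kb from the start and inside the neighbouring gene Fance, were rises of 1.98 (SE 0.44, limma adjusted p = 0.000298) and 1.92 (SE 0.49, limma adjusted p = 0.00167). At the first, control late morulae had 3.40, 2.60 and 1.15 and early ICMs 3.77, 4.89, 4.90 and 3.92, without overlap. The peak 0.2 kb upstream of Tead3 was not called in any comparison, and its control groups had means of 2.27 to 3.69.

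In late ICMs the knockouts were set side by side over the 186 peaks. They share no library, and line and deleted gene cannot be told apart between them. Of the peaks, 7 passed the threshold in the same direction in both, 29 only in the Pou5f1-KO, 9 only in the Sox2-KO and 141 in neither, and none passed in opposite directions. These shares of 3.76%, 15.6%, 4.84% and 75.8% lay near those over all peaks, which were 4.45%, 13.8%, 3.11% and 78.6%, with 0.0335% in opposite directions. The direct test of the difference between the effects passed at 1 peak, the Lats2 25.5 kb peak (0.554% of all peaks were called lower and 0.351% higher, 0.905% together), so the calls past the threshold in a single knockout are not shown to differ between them. In early ICMs it passed at 2 peaks, Lats2 25.5 kb and Wwtr1 -7.8 kb (0.372% and 0.308% of all peaks, 0.68% together). Over the loci of 7 epiblast markers, mean rlog in late ICMs was 3.98 on average in controls (highest 4.10) and 3.00 to 3.19 in Pou5f1-KO libraries, and 3.86 to 4.04 and 3.38 to 3.54 in the Sox2 line. Over 7 trophectoderm markers it was 3.40 to 3.58 and 3.36 to 3.77, and 3.26 to 3.44 and 3.67 to 3.81. Over 5 primitive endoderm markers it was 2.53 to 2.77 and 2.33 to 2.53, and 2.69 to 2.86 and 2.73 to 3.00. In early ICMs of the Pou5f1 line the epiblast markers had 3.63 to 3.89 in controls and 3.13 to 3.44 in KO libraries. There the trophectoderm markers had 3.33 to 3.55 and 3.08 to 3.38, and the primitive endoderm markers 2.62 to 2.97 and 2.32 to 2.74. In Sox2 early ICMs control and KO ranges overlapped for all 3 lists. Such shifts at marker loci do not tell cell numbers from signal per cell, and their part in the results above was not tested.

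**Figure D4:**
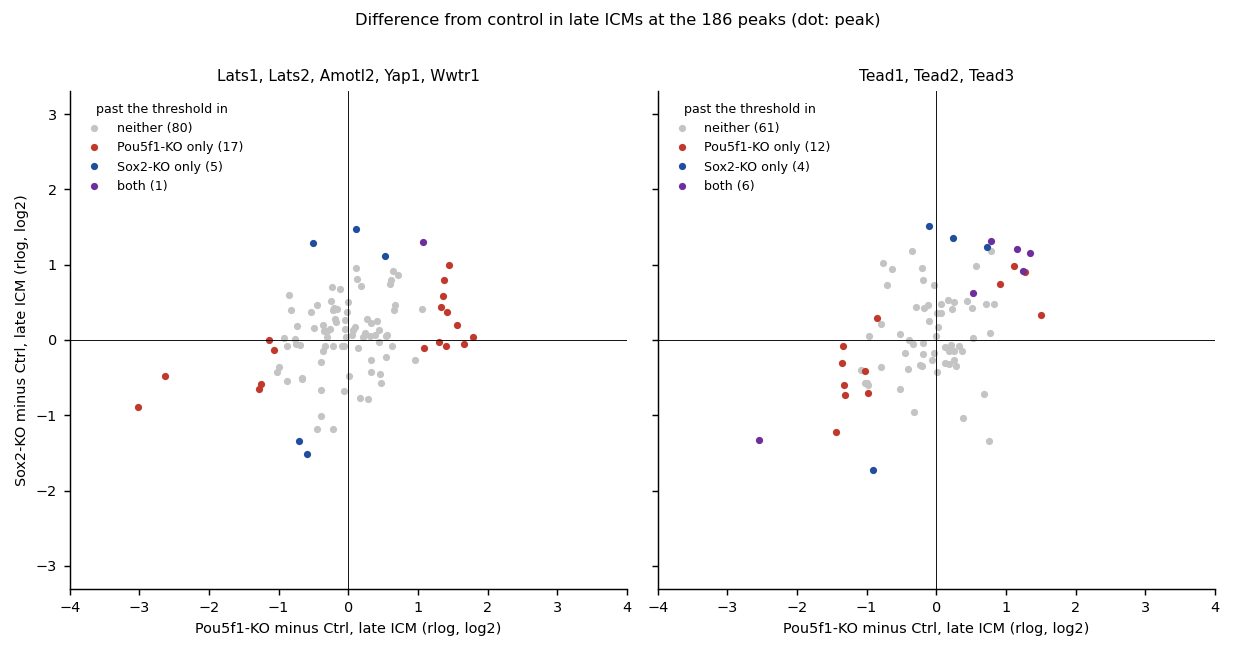
Difference in rlog (log2) between KO and Ctrl late ICMs at each of the 186 peaks, for the Pou5f1 line (horizontal) and the Sox2 line (vertical), with the coactivator, kinase and scaffold loci on the left and the TEAD loci on the right. Colours give the knockouts in which a peak passed adjusted p under 0.05, with counts in the key. Of the 7 peaks past it in both, 6 are at Tead1 and 1 at Wwtr1, and the lowest on the horizontal axis is the Lats2 peak at -3.02.

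Of the 13 peaks within 100 bp of an annotated transcript start of the 8 genes themselves, 1 was called in a comparison of KO with Ctrl (7.69%, where 24.5% of all peaks had such a call), the Amotl2 peak 1.8 kb into the gene, which fell in Pou5f1-KO late ICMs. The share over all peaks near starts was not worked out. The paper reports that most changed peaks lay away from starts, so the share of all peaks is not a like comparison. Starts of neighbouring genes are not counted here, and the Tead2 peak at 23.1 kb, which also fell there, lies over one of them. At Tead1 the peak over a start was at an internal one, so the peak 0.1 kb upstream of the 5' end was added after the values were seen. It had 3.19, 4.85, 4.85 and 3.95 in control and 4.22, 4.11, 3.74 and 4.01 in Pou5f1-KO late ICMs, which overlapped (limma adjusted p = 0.795). Of the 21 peaks that rose in Pou5f1-KO late ICMs 17 were annotated as intron, and of the 15 that fell 10, against 114 of all 186.

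The TEAD word was in 8 of the 21 peaks that rose in Pou5f1-KO late ICMs (38.1%) and in 2 of the 15 that fell (13.3%). Over all peaks called the same way, the word was in 30.2% of the higher and 17.6% of the lower ones. In Sox2-KO late ICMs it was in 3 of the 12 higher peaks (25.0%) and in none of the 4 lower ones, against 33.9% and 17.3% of all peaks so called. The octamer word was in 7.19% of all peaks lower in Pou5f1-KO late ICMs and in 1 of the 15 here, the Lats2 25.5 kb peak. Of the 5 peaks with this word, that peak and a Tead1 peak 162.4 kb into the gene, which fell by 1.73 in Sox2-KO late ICMs, passed a KO comparison in ICMs.

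Averaged over each locus, the group means spanned more at Tead1 than at the other genes. The loci other than Tead1 spanned 0.28 (Lats2) to 0.74 (Lats1) between their lowest and highest group means. For Tead1 the lowest group mean was 2.49, in Pou5f1-KO morulae, and the highest 3.94, in Sox2-KO late ICMs, whose libraries at 3.77 to 4.01 overlapped their controls at 3.56 to 3.84. Among 11842 to 11846 protein-coding genes with at least 5 peaks, the locus whose group means followed Tead1 most closely was Sgms1 (Pearson r = 0.987 over the 12 group means). For Lats1 it was Gng12 (0.969), for Tead2 Frs3 (0.967), for Yap1 D230025D16Rik (0.938), for Amotl2 its neighbour Anapc13 (0.929), for Lats2 Atp6v0a2 (0.894), for Tead3 4930404N11Rik (0.884) and for Wwtr1 Olfr718-ps1 (0.874). These r are maxima over all the loci compared, with the libraries in common, and so a description only.

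**Figure D5:**
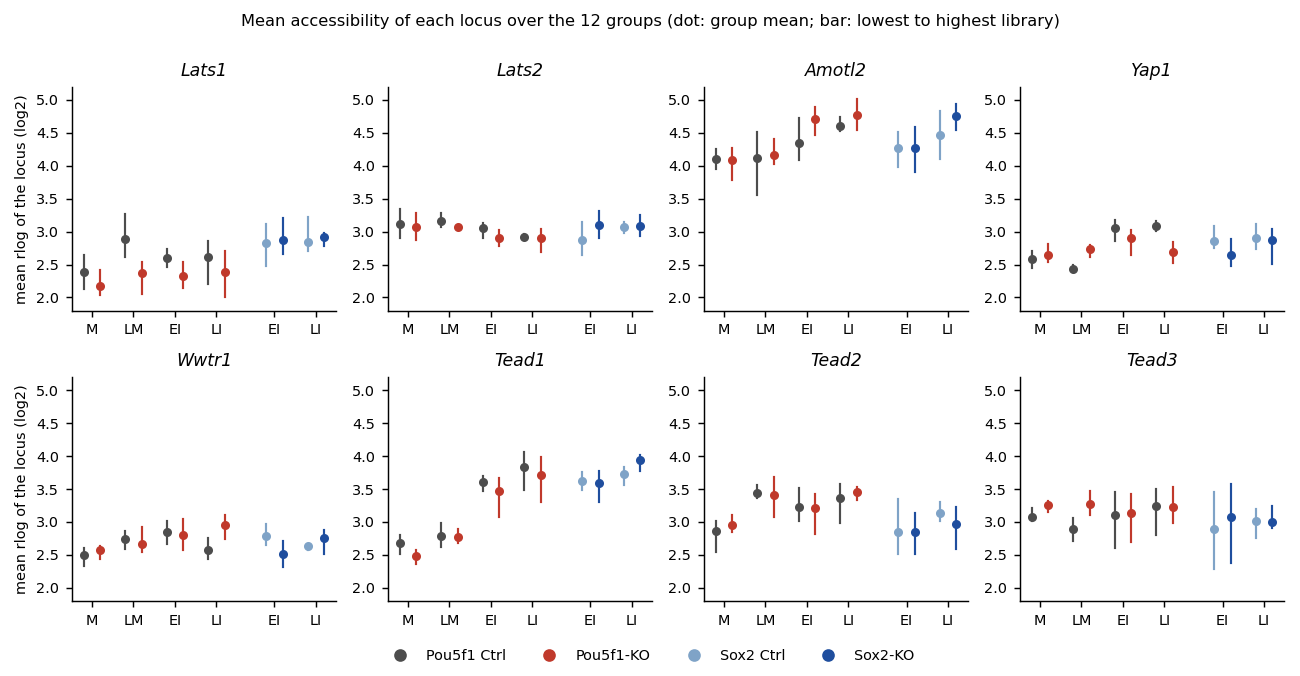
Mean rlog (log2) over the peaks of each locus, by stage (M, morula; LM, late morula; EI, early ICM; LI, late ICM), with the Pou5f1 line on the left and the Sox2 line on the right of each panel. Dots are group means and bars run from the lowest to the highest library. Tead1 steps up from 2.78 in control late morulae to 3.60 in control early ICMs, and Amotl2 has the highest mean throughout.

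Other genes of the pathway were taken as whole lists, chosen with results of these data already known. The 16 upstream regulators (the kinases Stk3, Stk4 and Taok1, their partners Sav1, Mob1a and Mob1b, and the scaffolds and adaptors Nf2, Amot, Amotl1, Wwc1, Wwc2, Frmd6, Rassf1, Ptpn14, Limd1 and Ajuba) held 244 peaks. In Pou5f1-KO late ICMs 20 fell and 23 rose (17.6% together, against 18.3% of all peaks), with a median difference of 0.05, against -0.04 over all peaks. In Sox2-KO late ICMs 6 fell and 14 rose (2.46% and 5.74%, against 4.88% and 2.71% of all peaks), with a median of 0.16 against 0.01. From late morula to early ICM in controls 39 fell and 33 rose (29.5% together, against 29.7%). Tead4, Vgll3 and Vgll4 held 62 peaks. Of these 6 fell and 11 rose in Pou5f1-KO late ICMs (27.4% against 18.3% of all peaks). There were 9 that rose and none that fell in Sox2-KO late ICMs (14.5% against 7.59%, with a median of 0.46 against 0.01 over all peaks), and 14 fell and 12 rose into the early ICM (41.9% against 29.7%). The 6 targets (the matricellular genes Ccn1 and Ccn2, Ankrd1, the receptor kinase Axl, and the trophectoderm regulators Cdx2 and Gata3) held 47 peaks. There 10 fell and 3 rose in Pou5f1-KO late ICMs (21.3% and 6.38%, against 10.1% and 8.19% of all peaks, and 27.7% together against 18.3%). In Pou5f1-KO early ICMs 7 fell and 2 rose (14.9% and 4.26%, against 5.43% and 2.753%, and 19.1% together against 8.18%). The lower peaks lay at 3 of the 6 genes in late and 2 in early ICMs, and the higher ones also at 3 and 2. Cdx2 held 10 of the peaks and Gata3 14, and both are also among the trophectoderm markers. In Sox2-KO late ICMs 1 fell and 4 rose (10.6% against 7.59%), and 15 rose and 5 fell into the early ICM (42.6% against 29.7%). In Pou5f1-KO morulae and in late morulae, 1 target peak was called lower at each stage (2.13% each, against 0.237% and 0.648%). Of the Tead4, Vgll3 and Vgll4 peaks 1 was called lower in Pou5f1-KO late morulae (1.61%) and none in morulae, where 3 were lower and 0 higher at an unadjusted p under 0.05. None of the upstream regulator peaks was called at either stage by limma's test, with 7 lower and 7 higher in morulae and 14 lower and 4 higher in late morulae at an unadjusted p under 0.05.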

How the data were processed

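ATAC-seq was measured in 44 pooled libraries of 12 groups. Per the labels and the study's methods, the authors trimmed reads with SeqPurge, aligned them to mm10 with Bowtie2, removed duplicates with Picard, shifted reads to the Tn5 cut, called peaks with MACS2 and counted insertions in 200 bp peaks with BEDTools. The deposited table holds rlog values, regularised log2 counts made by the authors with DESeq2. The rlog transform shrinks differences at low counts, and the table gives no read depth.

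Peaks were placed on GENCODE vM21 (GRCm38), whereas the study used vM23. The members, the pathway and marker lists and the tests were chosen with earlier results of these data known. A linear model with 1 mean per group was fitted to all 152393 peaks and 44 libraries with limma 3.58.1 in R 4.3.3 (empirical Bayes with a trend), giving 11 comparisons. P-values were adjusted by Benjamini-Hochberg over all peaks, with calls made below 0.05. The fitting steps were run on simulated data with known differences added, which does not test the model against the real spread between libraries. Read counts were not recovered and no count test was run. Samples were grouped by the labels, and no replicate was left out of the main values.

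Peaks were named by rule: the peak whose edges were nearest a transcript start of the gene (the highest mean rlog among several over a start), those with the smallest adjusted p in late ICMs of each knockout and in control early ICM against late morula, up to 4 per gene called in both knockouts, and any called in KO morulae. The Wwtr1 peak at -7.8 kb, the Tead1 peak at -0.1 kb, the Lats2 peaks at 20.8, 21.1, 48.9 and 70.0 kb, the Amotl2 peak at 17.5 kb, the Tead1 peaks at 58.5 and 162.4 kb and the Tead3 peak at -6.9 kb were singled out after their values were seen.

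Replicate numbers are in the sample titles. Deviations of same-numbered KO and Ctrl libraries from their group means correlated at 0.109 to 0.192 in Pou5f1 late morulae and 0.121 to 0.162 in Pou5f1 early ICMs, so there the numbers were taken to pair the samples. In the other 4 sets at least 1 pair was below that level, the lowest at -0.025. In Pou5f1 morulae, though, same-numbered pairs (0.048 to 0.153) were all above the different-numbered ones, the highest of which was 0.009. The main values come from the fit without the block in every set. With the replicate block, 1 peak of the 186 fell in Pou5f1-KO late morulae in place of 0. In early ICMs the block added Yap1 4.8 kb (-1.20, adjusted p = 0.0242), Tead1 11.5 kb (-1.07, adjusted p = 0.022) and Amotl2 13.0 kb (0.84, adjusted p = 0.0262) by limma. Alternatives were fits of only the libraries compared, only the peaks whose mean rlog reached the median, quantile normalization, the block, and each library left out.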

Additional observations from a re-analysis of the deposited data

Results flagged for a closer look

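Among the 36 named peaks, 288 sets of 4 ICM libraries were searched for a library standing apart by Dixon's criterion, and 16 sets had one, where chance gives about 1 in 20. At the Yap1 start peak it was the lowest Pou5f1-KO early ICM library, at 4.32. At Lats1 -8.4 kb it was the lowest Pou5f1-KO late ICM, at 2.61. At Lats2 69.1 kb it was the lowest control late ICM of the Pou5f1 line, at 4.53. The Lats2 peak 12.2 kb into the gene had 3 such libraries: a control early ICM of the Pou5f1 line at 5.27, a Sox2-KO early ICM at 3.92 and a Sox2-KO late ICM at 4.91. The Amotl2 peak 1.0 kb into the gene had a highest Pou5f1-KO late ICM at 5.91 and a highest Sox2-KO late ICM at 6.09.

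At Tead1 9.2 kb the highest control late ICM of the Pou5f1 line, at 4.74, stood apart from controls of 4.08 to 4.16, away from the KO libraries. At Tead1 102.5 kb it was the highest Pou5f1-KO early ICM, at 6.05. At Tead2 the libraries standing apart were a control early ICM at 4.36 (3.3 kb upstream), a control late ICM at 3.04 (0.9 kb into the gene) and a Pou5f1-KO early ICM at 0.61 (23.1 kb), all of the Pou5f1 line. At Tead3 they were Pou5f1-KO libraries: an early ICM at 1.24 and a late ICM at 3.31 (both 25.6 kb) and a late ICM at 2.51 (0.2 kb upstream).

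The effects of the knockouts differed by limma's test of the difference itself in 3 cases. This test crosses the mouse lines, so line and deleted gene cannot be told apart. At Wwtr1 -7.8 kb the Pou5f1 effect minus the Sox2 effect was -1.83 in early ICMs. At Lats2 25.5 kb it was -2.34 in early and -2.13 in late ICMs.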

How the results depend on the processing

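None of the 63 called differences rerun at peaks given in the text changed sign under any alternative. Leaving out 1 library, 2 of the rerun differences that were not called did: Wwtr1 72.2 kb in Pou5f1-KO early ICMs ranged from -0.62 to 0.29, and Wwtr1 -7.8 kb in Sox2-KO early ICMs from -0.12 to 0.27. Of the 63, 31 lost the call when some 1 library was left out, 5 under quantile normalization, 3 with only the libraries compared, and none with the replicate block or, of the 55 still tested, with the peaks whose mean rlog reached the median. Counts over the 186 peaks moved by over 1.5 times as follows, and the cause was not tested beyond the smaller number of libraries or peaks. With only the libraries compared, Pou5f1-KO late morulae had 2 lower and 1 higher, Sox2-KO early ICMs 0 higher, Sox2-KO late ICMs 8 lower, control late morula against morula 2 lower, and the difference of the knockouts 1 lower in early and 2 lower in late ICMs. With those peaks only, Sox2-KO early ICMs had 1 lower and control late morula against morula 0 lower. Quantile normalization gave 3 lower for control late morula against morula and 0 lower for the difference in late ICMs.

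With the replicate block, Pou5f1-KO late morulae had 1 lower, and the difference of the knockouts in late ICMs 3 lower and 1 higher, among them Yap1 31.3 kb (-2.16, limma adjusted p = 0.0336). Where the numbers were taken to pair the samples, it changed no other count by over 1.5 times.

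Leaving out 1 library at a time gave 1 to 7 higher in Pou5f1-KO early ICMs, 7 to 19 lower and 12 to 19 higher in Pou5f1-KO late ICMs, 0 to 2 lower and 0 higher in Sox2-KO early ICMs, and 1 to 5 lower and 4 to 8 higher in Sox2-KO late ICMs. It gave 1 to 2 lower and 5 to 8 higher for control late morula against morula and 0 to 1 lower for late against early ICM. The difference of the knockouts had 1 to 2 lower in early ICMs, and 0 to 1 lower and 0 to 1 higher in late ICMs. Depth is unknown, so no limit from counting can be given.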
